A study of Arabidopsis thaliana with 12 samples.

Results

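The leaf transcriptome of 35S:HSFA1b plants was compared with that of WT plants for how it changed on heating. For each gene the change between heat stress (HS) and non-stress (NS) conditions was taken in 35S:HSFA1b plants, and the same change in WT plants was subtracted from it. This difference of 2 differences is called the interaction here. It was computed on log2(FPKM + 0.01), where FPKM is a fragment count scaled for transcript length and for sequencing depth, and 0.01 is a pseudocount. All 12 columns of the expression table were used, which are all the columns of the series, with 3 in each of 4 groups. Of 33557 loci in the table, 17720 had a mean of at least 1 FPKM and were tested, and 2112 had an interaction past an adjusted p of 0.05 (limma, Benjamini-Hochberg).

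The 4 groups were 35S:HSFA1b HS, 35S:HSFA1b NS, WT HS and WT NS, all of them leaves of Arabidopsis Columbia 0 at 5 weeks. HS plants were held at 37 °C for 30 min and NS plants at 23 °C. The overexpressor carries HSFA1b fused to red fluorescent protein (RFP) under the cauliflower mosaic virus 35S promoter, which is active in most tissues at all times. It is 1 transgenic line, so what is particular to that line cannot be told apart from overexpression of HSFA1b. The genotype field of the sample labels reads wild type for every library, and the groups follow the sample titles. Nothing in the labels says that the 3 libraries of a group came from separate plants, so the p-values measure the spread between these libraries.

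Heat shock factors are transcription factors that trimerize on heating and bind heat shock elements, which are inverted repeats of the letters GAA. In Arabidopsis the class A1 factors, HSFA1b among them, start the heat response. Their targets include chaperones, which bind unfolded proteins, and further transcription factors such as HSFA2, HSFA7A and DREB2A, which extend the response. A factor that is overexpressed may already act on such genes without heat. The interaction measures whether the fold change on heating is then larger or smaller than in WT, and not how many FPKM heat adds. A gene with a raised NS level can thus have a negative interaction although its HS level is like that of WT or higher.

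The columns differed in 2 technical ways. The highest FPKM of any locus was 4095 to 5341 in 5 columns, all 3 of 35S:HSFA1b HS and columns 0 and 1 of 35S:HSFA1b NS, and 21188 to 30644 in the other 7, which are column 2 of 35S:HSFA1b NS and all WT columns. Likewise 5 libraries carry one submission number in their labels and 7 the other, with 35S:HSFA1b HS wholly under the first and WT wholly under the second, although no source says which column is which library. Under HS the genotype and the set of columns therefore cannot be told apart. Within 35S:HSFA1b NS, the only group with columns of both sets, columns 0 and 1 stood at a median of 0.06 above column 2 on the log2 scale for genes of 1 to 10 FPKM, at -0.10 for 100 to 300 FPKM, and at -1.27 above 3000 FPKM. The gap of 35S:HSFA1b HS from WT HS had a median of 0.07 in genes of 1 to 10 FPKM and of -1.51 above 3000 FPKM. High FPKM values were thus lower in columns 0 and 1 than in column 2 of the same group, and the counts below are also given with column 2 of 35S:HSFA1b NS left out and with the columns mapped to each other by this level curve.

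**Figure D1:**
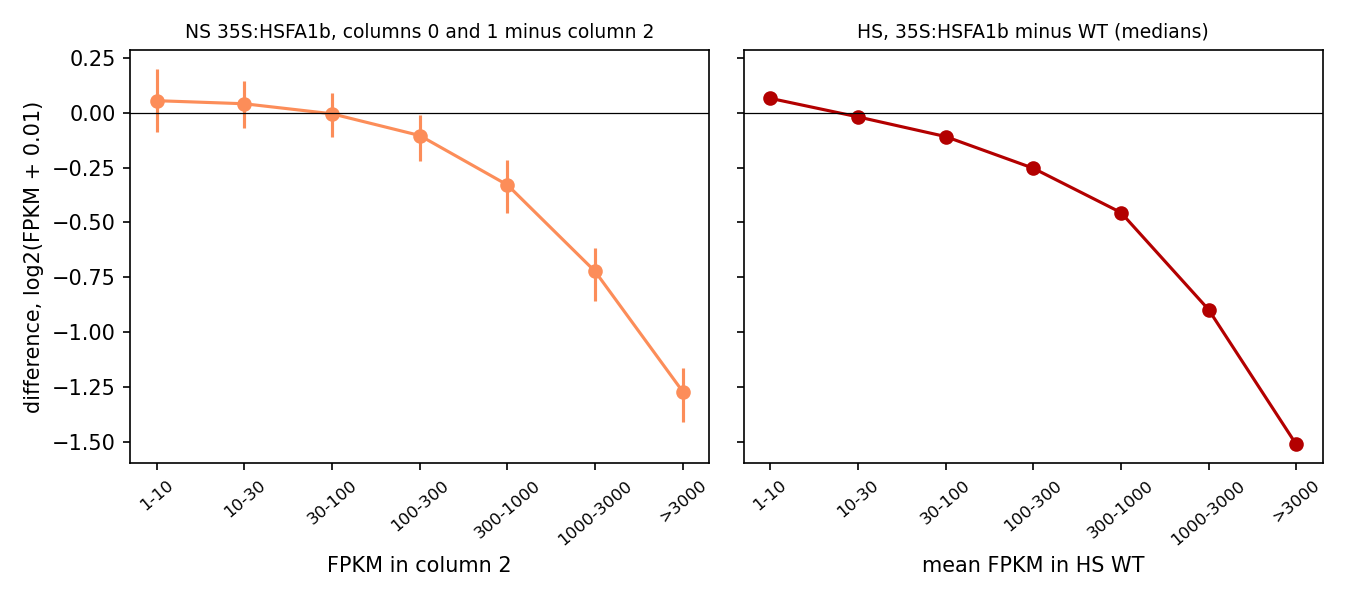
The difference on the log2(FPKM + 0.01) scale by expression level. Left, columns 0 and 1 minus column 2 within 35S:HSFA1b NS, as medians with lines over the middle 50% of genes, and right, the median of 35S:HSFA1b minus WT under HS. Both fall with the level, to -1.27 and -1.51 above 3000 FPKM.

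The leaf identity of the samples was read from marker genes. The 5 mesophyll markers summed to 14597 to 16457 FPKM in 35S:HSFA1b HS and 12924 to 50074 FPKM in 35S:HSFA1b NS, against 53834 to 68237 FPKM in WT HS and 55449 to 70289 FPKM in WT NS, and none had an interaction past the limma test, although 1 did with the level curve. Their median interaction was -0.40, but 0.38 without column 2 of 35S:HSFA1b NS. Their median difference from WT was -1.37 under NS and -1.58 under HS, or -0.41 and 0.07 after the level curve. The 6 flower markers summed to at most 0.712 FPKM in any column. The 5 root markers summed to 18.7 to 31.7 FPKM in 35S:HSFA1b HS and 39.7 to 41.7 FPKM in 35S:HSFA1b NS, against 9.15 to 16.2 FPKM in WT HS and 13.8 to 16.1 FPKM in WT NS. Only 1 of these 5 had a mean of at least 1 FPKM and was tested, and 4 did not. The sums are therefore mostly those of 1 gene, whose interaction was not called. Of 5 guard cell markers, KAT1, a potassium channel, had a positive interaction of 1.22, and of 4 phloem markers none was called. In whole leaves, fewer cells of a type and less RNA per cell cannot be told apart. Under HS neither can be told apart from the set of columns.

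HSFA1b itself (AT5G16820, chromosome 5, 5530195 to 5532889, plus strand, TAIR10.1) was at 330, 364 and 351 FPKM in 35S:HSFA1b HS and 430, 462 and 624 FPKM in 35S:HSFA1b NS, against 6.17, 6.56 and 7.31 FPKM in WT HS and 4.79, 3.10 and 3.55 FPKM in WT NS. Every overexpressor column was above every WT column, and fragments of the transgene and of the native gene are counted together. On heating the level changed by -0.52 in 35S:HSFA1b and by 0.83 in WT on the log2 scale, which made an interaction of -1.35 (SE 0.24, adjusted p = 0.0049, limma). Under HS the overexpressor columns did not overlap its NS columns and lay below them, while the WT HS columns lay above all WT NS columns. Column 2 of 35S:HSFA1b NS is of the other set of columns, which the level curve shifts by -0.20 at 300 FPKM and -0.55 at 1000 FPKM. The size of the fall in 35S:HSFA1b may include such a shift.

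Heat changed 7500 of 17720 genes in 35S:HSFA1b (42.3%) and 8647 in WT (48.8%) at an adjusted p of 0.05 (limma), an order that turned with single WT columns. The counts were 7298 in 35S:HSFA1b and 6985 in WT without column 1 of WT NS, 7220 in 35S:HSFA1b and 7066 in WT without column 2 of WT NS, and 8337 in 35S:HSFA1b and 7667 in WT without column 2 of WT HS. Each of these refits took a column from WT alone, so the WT heat change was also tested on fewer columns than that of 35S:HSFA1b. The SD of the log2 heat change over all tested genes was 0.82 in 35S:HSFA1b and 1.15 in WT. The interaction passed in 2112 genes, 11.9% of those tested, of which 1413 (7.97% of those tested) were negative and 699 (3.94%) positive. Negative ones were 66.9% of the calls, but 47.3% with quantile normalization between columns, which moved the median interaction of all genes to 0.14, against 0.00 without it. The number of calls rested on single columns. It was 1154 without column 2 of 35S:HSFA1b NS, 1251 without column 1 of 35S:HSFA1b NS, 1300 and 1213 without columns 1 and 2 of 35S:HSFA1b HS, 3388 without column 0 of WT HS, and 1182 and 1259 without columns 1 and 2 of WT NS. Of the 2112 genes, 1143 (54.1%) remained called without column 2 of 35S:HSFA1b NS, where genotype and set of columns coincide, 2037 remained with the level curve, and 1086 (51.4%) passed under both of these and quantile normalization. The gene just inside the threshold was AT5G64850 (interaction -0.57, adjusted p = 0.049994, limma) and the gene just outside was AT4G03120 (-0.58, adjusted p = 0.050026, limma).

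The 2112 genes were sorted by their 2 heat changes, so the classes and the heat values below describe the choice and carry no test of their own. A response was called damped when both genotypes moved the same way and 35S:HSFA1b moved less on the log2 scale. It was called enhanced when 35S:HSFA1b moved more on that scale, and opposite when the signs differed. Damped genes numbered 780, made up of 630 that went up and 150 that went down on heating. Enhanced genes were 207 going up and 249 going down. Opposite genes numbered 876, of which 534 had a negative heat change in 35S:HSFA1b and a positive one in WT, and 342 the reverse. In 153 opposite genes both heat changes also passed the test by themselves, 95 of them down in 35S:HSFA1b and up in WT and 58 up in 35S:HSFA1b and down in WT. In the other opposite genes at least 1 of the heat changes missed the test.

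**Figure D2:**
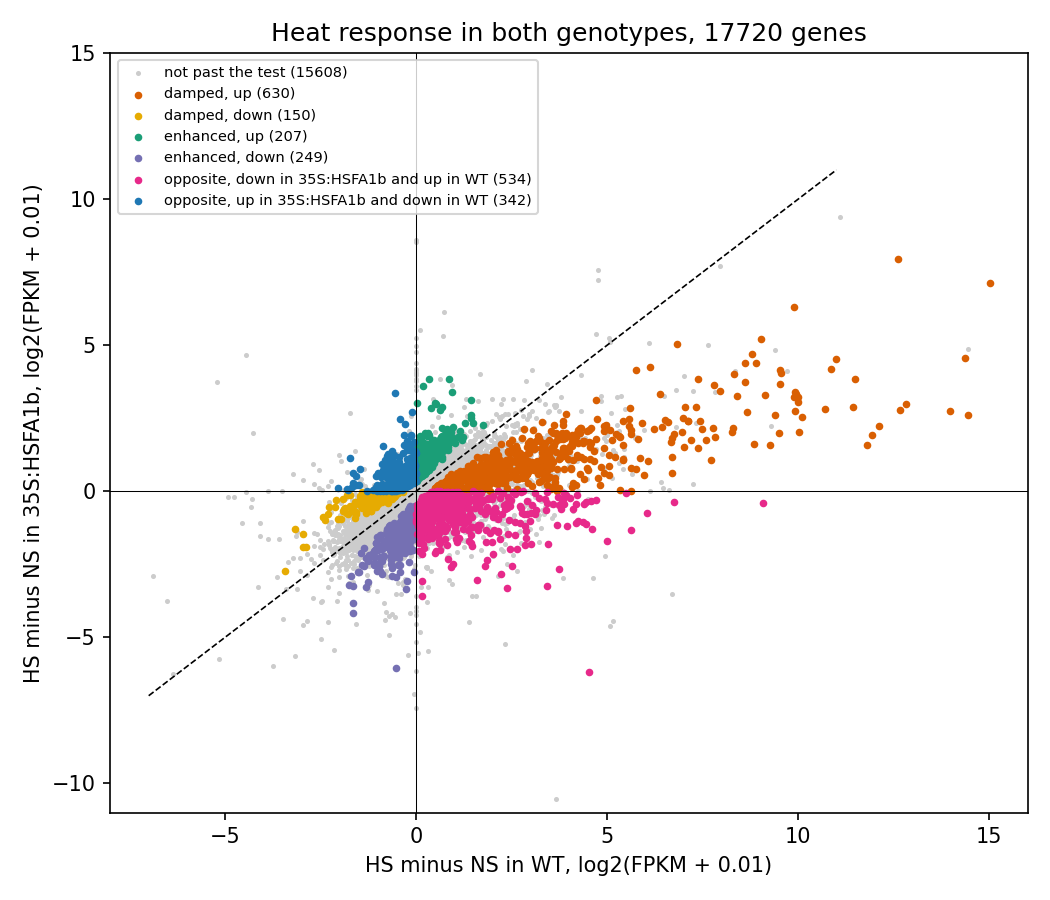
Heat change (HS minus NS) on the log2(FPKM + 0.01) scale in WT (x axis) and in 35S:HSFA1b (y axis) for 17720 genes, with the 2112 genes past the interaction test coloured by class and their numbers in the legend. The dashed line marks equal change, and the damped genes that went up stretch furthest along the WT axis, below it.

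The damped genes that went up were the largest of the 4 damped and enhanced groups and held the chaperones. Their median interaction was -1.49, with a median heat change of 0.77 in 35S:HSFA1b and 2.43 in WT, and a median interaction over all tested genes of 0.00. For comparison, over all tested genes heat raised 22.6% in 35S:HSFA1b and 26.3% in WT and lowered 19.7% in 35S:HSFA1b and 22.5% in WT, and the genotypes differed in 14.8% under NS and 28.9% under HS (limma). Their median difference between 35S:HSFA1b and WT was 0.82 under NS and -0.63 under HS, or 0.80 and -0.48 after the level curve. In 584 of 630 the 35S:HSFA1b NS mean lay above the WT NS mean, in 512 the 35S:HSFA1b HS mean lay below the WT HS mean, and in 466 both held. In 187 of them the heat change passed the test in WT and missed it in 35S:HSFA1b. Without column 2 of 35S:HSFA1b NS 441 of the 630 remained called, and with the level curve 600. The 313 genes that stayed below 100 FPKM in every column, where the sets of columns differed least, had a median interaction of -1.21, from 0.59 in 35S:HSFA1b and 1.98 in WT.

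Small heat shock proteins (HSPs), which hold unfolded proteins in a refoldable state, had the most negative interactions of the chaperone lists. Over all tested genes 7.97% were negative and 3.94% positive, the shares against which the counts of each list are set. Of the 11 cytosolic members, all tested, 10 were negative and none positive, with a median interaction of -7.68. Their median heat changes were 2.22 in 35S:HSFA1b and 10.98 in WT. The remaining one, AT4G21870, had an interaction of 0.96 (adjusted p = 0.11, limma). All 6 members of the mitochondria, plastids and other organelles were negative, with a median of -8.73. HSP17.4 (AT3G46230, chromosome 3) was at 2445, 2533 and 2197 FPKM in 35S:HSFA1b HS and 516, 601 and 784 FPKM in 35S:HSFA1b NS, against 7944, 8268 and 11205 FPKM in WT HS and 3.52, 1.53 and 2.33 FPKM in WT NS. The 4 groups did not overlap, the overexpressor lying far above WT without heat and below it with heat, and the interaction was -9.98 (SE 0.37, adjusted p = 5.7e-08, limma). HSP23.6-MITO (AT4G25200), a mitochondrial member, was at 1655, 1884 and 1613 FPKM in 35S:HSFA1b HS and 223, 250 and 288 FPKM in 35S:HSFA1b NS, against 4904, 5015 and 7156 FPKM in WT HS and 0.758, 0.201 and 0.256 FPKM in WT NS. Its interaction was -11.20 (SE 0.53, adjusted p = 3e-07, limma), the most negative in the class of damped genes with at least 0.1 FPKM in every column. HSP17.6II, HSP17.6A, AT1G53540 and AT2G29500 followed, with interactions of -10.21, -9.89, -9.82 and -8.55.

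The small HSPs differed more between the genotypes without heat than with it. Under NS the cytosolic members had a median of 6.79 above WT in 35S:HSFA1b on the log2 scale, and the organelle members 9.07. Under HS the cytosolic members stood at a median of -1.77 from WT, which came to -0.06 after the level curve, and the organelle members at -0.27, which came to 0.63. HSP21, the plastid member, had an interaction of -9.88, a difference from WT of 10.21 under NS and of 0.33 under HS. It fell under 0.1 FPKM in at least 1 column, so the size of its folds depends on the pseudocount. Of the organelle members 1 was at 0 in at least 1 column. With a pseudocount of 1 the median interaction was -6.54 for the organelle members and -7.38 for the cytosolic ones. After the level curve the NS medians were 6.61 for the cytosolic and 8.98 for the organelle members. Only 31 genes stood above 3000 FPKM in column 2 of 35S:HSFA1b NS, from which the curve was drawn. Under HS genotype and set of columns cannot be told apart, and the cause of the lower HS values was not tested. HSP17.4 overlaps AT3G07365 on the opposite strand over 453 bases, and since counting by strand is not stated, reads of the pair cannot be told apart.

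The HSP70 and HSP90 families had negative median interactions too, but their list medians differed less between the genotypes without heat than with it. The members HSP70 and HSP90.1, given below, went the other way and differed more without heat on the log2 scale. Their median difference between 35S:HSFA1b and WT under NS was 0.24 for HSP70 and 0.48 for HSP90, and under HS -1.32 and -1.35. After the level curve the NS medians were 0.29 and 0.52 and the HS medians -0.50 and -0.78. HSP70 proteins refold clients with ATP, and 10 of 14 members were negative and none positive, with a median interaction of -1.86. HSP70 (AT3G12580) was at 2398, 2514 and 2249 FPKM in 35S:HSFA1b HS and 595, 663 and 883 FPKM in 35S:HSFA1b NS, against 8646, 8144 and 9933 FPKM in WT HS and 64.9, 34.3 and 45.2 FPKM in WT NS. Again no group overlapped another, and the interaction was -5.82 (SE 0.30, adjusted p = 5.9e-07, limma). HSP70B, MTHSC70-2 and HSP70-15 had interactions of -6.60, -2.85 and -1.99, the last a member with a near-identical copy over 3027 bases (93.6%, AT1G79930). Without column 2 of 35S:HSFA1b NS 7 of the list remained negative.

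HSP90 proteins mature signalling proteins, and all 7 members were negative, with a median of -1.80. The number was 6 without column 2 of 35S:HSFA1b NS, with the level curve and with quantile normalization. The median was -1.24 with the level curve and -1.17 with quantile normalization. HSP90.1 was at 2384, 2391 and 2103 FPKM in 35S:HSFA1b HS and 494, 556 and 655 FPKM in 35S:HSFA1b NS, against 5531, 5233 and 6812 FPKM in WT HS and 38.7, 11 and 15.9 FPKM in WT NS, an interaction of -6.24. HSP90.6 had -2.46, HSP90.2 -1.95 and HSP90.5 -1.80. HSP90.2 has 2 near-identical copies, AT5G56010 and AT5G56000, so its own share of the reads is uncertain.

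HSP100 proteins pull proteins out of aggregates, and all 4 members of the HSP100 and HSA32 list were negative, with a median of -4.58. The list median of the difference from WT under HS was -0.89, or -0.36 after the level curve. HSP101, needed for acquired thermotolerance, was at 965, 1104 and 993 FPKM in 35S:HSFA1b HS and 101, 102 and 106 FPKM in 35S:HSFA1b NS, against 3875, 3497 and 4540 FPKM in WT HS and 9.43, 5.54 and 6.51 FPKM in WT NS. Its groups did not overlap either, with an interaction of -5.83 (SE 0.24, adjusted p = 9.3e-08, limma). HSA32, which prolongs acquired thermotolerance, differed in that its HS levels were alike, at 568, 658 and 541 FPKM in 35S:HSFA1b HS and 155, 162 and 165 FPKM in 35S:HSFA1b NS, against 452, 546 and 562 FPKM in WT HS and 2.00, 2.203 and 2.71 FPKM in WT NS. The HS columns of the genotypes overlapped, the NS columns did not, and the interaction was -5.95 (SE 0.18, adjusted p = 1.1e-08, limma). Among co-chaperones and chaperonins 16 of 21 were negative and none positive, with a median of -1.97. Their median difference from WT under HS was -1.22, or -0.52 after the level curve. HOP3, which links HSP70 to HSP90, had an interaction of -7.50, the co-chaperone BAG6 -6.96, FES1A, which acts with HSP70, -4.73, and ROF1, a peptidyl-prolyl isomerase, -2.93.

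**Figure D3:**
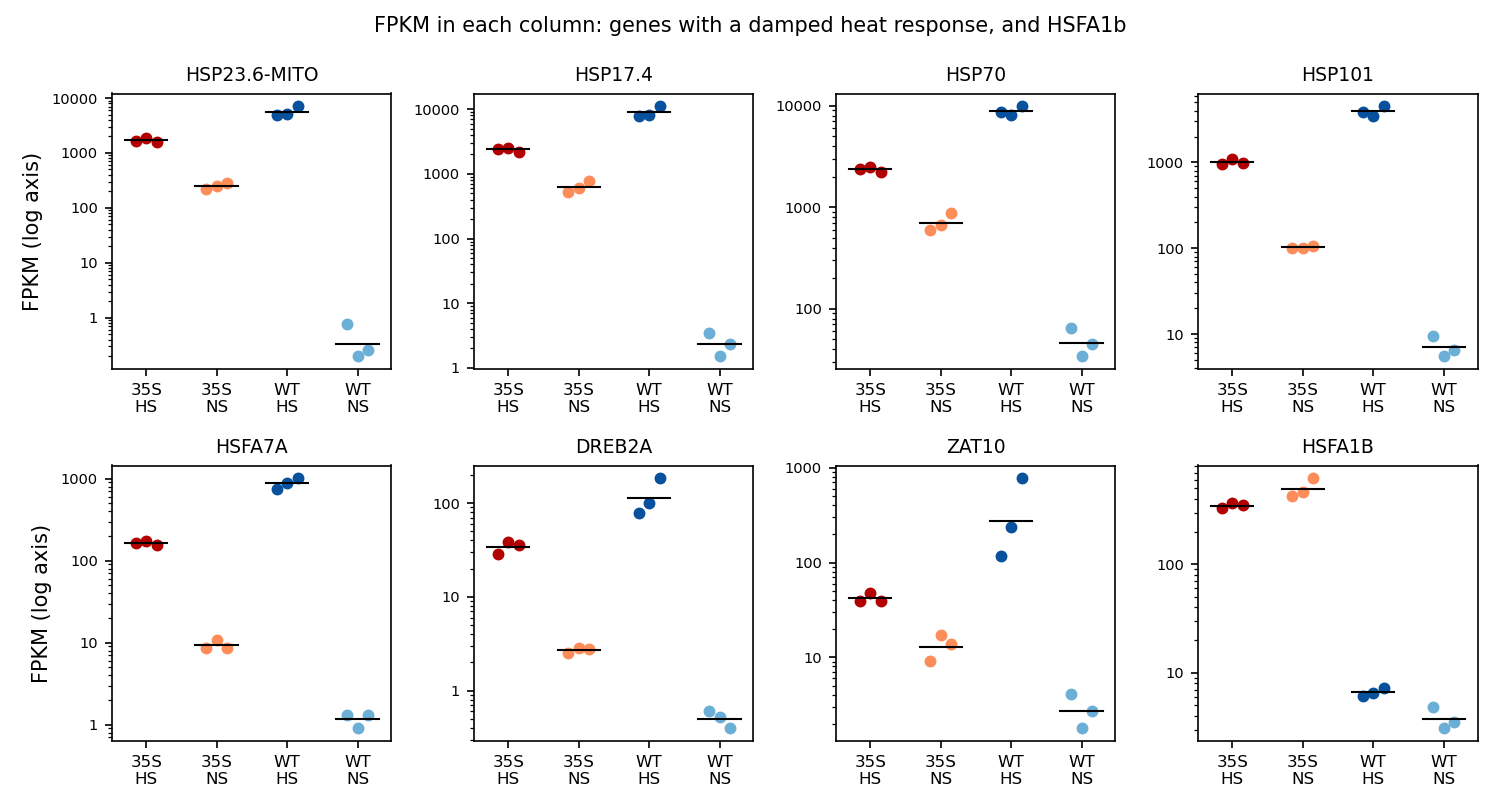
FPKM in each of 3 columns per group (points, log axis) with the mean of the log values (line) for 7 damped genes and HSFA1b. In the chaperones the 35S:HSFA1b NS points lie far above the WT NS points and the 35S:HSFA1b HS points below the WT HS points, and in HSFA1b the overexpressor points lie above 329 FPKM throughout.

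Of the 21 heat shock factor genes 17 were tested, 8 were negative and 1 positive, with a median interaction of -1.35. Of these calls 6 were damped, 2 were opposite and 1 was enhanced, and the median heat change over the list was 1.64 in 35S:HSFA1b and 1.61 in WT. HSFA7A (AT3G51910), a heat-induced class A factor, was at 165, 173 and 156 FPKM in 35S:HSFA1b HS and 8.67, 10.9 and 8.53 FPKM in 35S:HSFA1b NS, against 754, 877 and 1018 FPKM in WT HS and 1.33, 0.911 and 1.33 FPKM in WT NS. All 4 groups were apart, with an interaction of -5.39 (SE 0.23, adjusted p = 1.2e-07, limma). The class B factors, which mostly act as repressors, had interactions of -3.54 (HSFB1), -2.59 (HSFB2B) and -2.50 (HSFB2A). The 1 positive member, named after its values were seen, was HSFA1D, which acts with HSFA1b at the start of the response. It was at 25.5, 30.1 and 27.2 FPKM in 35S:HSFA1b HS and 5.39, 5.83 and 5.33 FPKM in 35S:HSFA1b NS, against 10.05, 11 and 15.2 FPKM in WT HS and 4.47, 4.26 and 4.09 FPKM in WT NS. It was higher in the overexpressor in both conditions without overlap, with an interaction of 0.84 (adjusted p = 0.021, limma), but the call was lost without column 2 of 35S:HSFA1b NS.

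In the list of DREB2, MBF1 and stress metabolism genes 8 of 14 tested members were negative and none positive. The number of negative members was 6 without column 2 of 35S:HSFA1b NS and 6 with the level curve. With a pseudocount of 1 it was 7, and 1 member was positive. DREB2A, a factor that acts below the class A1 factors, was at 28.3, 38.2 and 35.4 FPKM in 35S:HSFA1b HS and 2.55, 2.82 and 2.75 FPKM in 35S:HSFA1b NS, against 78.6, 101 and 185 FPKM in WT HS and 0.613, 0.524 and 0.399 FPKM in WT NS, an interaction of -4.15 (SE 0.38, adjusted p = 5.1e-05, limma). Its groups did not overlap, and all of its values were below 200 FPKM, where the sets of columns differed little. MBF1C, a coactivator, had -4.92 and GOLS1, which makes the precursor of raffinose sugars, -4.72. APX2, a cytosolic ascorbate peroxidase that removes hydrogen peroxide, was at 653, 863 and 682 FPKM in 35S:HSFA1b HS and 108, 138 and 116 FPKM in 35S:HSFA1b NS, against 148, 174 and 438 FPKM in WT HS. It is listed at 0 in all WT NS columns, so no fold is given for WT. Of the 4 members named, APX2 alone was higher in every overexpressor HS column than in every WT HS column. The list median was -0.76, or -0.46 without APX2.

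SR proteins guide splice-site choice, and 5 of 19 tested were negative and none positive. SR45A was at 423, 469 and 436 FPKM in 35S:HSFA1b HS and 95.1, 112 and 103 FPKM in 35S:HSFA1b NS, against 1116, 1080 and 1404 FPKM in WT HS and 40.2, 33.6 and 32.8 FPKM in WT NS, an interaction of -2.97 (SE 0.17, adjusted p = 9.7e-07, limma). The others were SR30 at -2.68, SCL33 at -1.63, SC35 at -0.85 and SR34B, named after its values were seen, at -0.93.

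Genes of the unfolded protein response of the endoplasmic reticulum (ER) rested more on single columns. Of 20 tested members 11 were negative and none positive, with a median interaction of -1.51. BZIP28, a membrane-bound factor released by ER stress, was at 32.8, 31.7 and 30.0 FPKM in 35S:HSFA1b HS and 17.3, 19.3 and 19.7 FPKM in 35S:HSFA1b NS, against 52.7, 60.4 and 81.9 FPKM in WT HS and 13.6, 11.1 and 11 FPKM in WT NS. Its groups were apart from each other and its interaction was -1.68 (SE 0.21, adjusted p = 0.00049, limma). ERDJ3A, an ER co-chaperone, had -4.54, and the calreticulins CRT1A and CRT1B -1.33 and -1.49. The number of negative members was 3 without column 2 of 35S:HSFA1b HS, column 2 of 35S:HSFA1b NS, or column 1 or 2 of WT NS, 7 without column 1 of WT HS, and 17 without column 0 of WT HS or of WT NS.

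HSFA1b binding and promoter sequence are readouts that the sorting did not use. The damped genes that went up were, however, sorted by a rise in WT, where the heat change of all 630 passed the test (limma). Their median level in WT HS was 74.3 FPKM, against 11.9 FPKM over all tested genes. Genes raised by heat but not damped were not compared as a group. The shares of binding and of the promoter element below thus cannot tell damping apart from heat induction. Loci that the study assigned to HSFA1b binding sites in chromatin made up 302 of the 630 damped genes that went up (47.9%), against 995 of all 17720 tested genes (5.62%). The share was 1.33% of damped genes that went down, 5.80% of enhanced genes that went up, 8.43% of enhanced genes that went down, 11.8% of opposite genes down in 35S:HSFA1b and up in WT, and 0.585% of those up in 35S:HSFA1b and down in WT. Binding was measured in NP:HSFA1b plants, another transgenic line, and not in the plants of these libraries.

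A heat shock element of 3 alternating repeats, read as GAA, any 2 bases, TTC, any 2 bases and GAA, was searched on both strands (the other strand reads TTC, any 2 bases, GAA, any 2 bases and TTC) from 250 bases before to 50 bases after the annotated start. It was found in 39 of 629 promoters of damped genes that went up (6.20%), against 102 of 17614 promoters of tested genes (0.579%) and 152 of 32809 promoters of all loci (0.463%). In the other classes it was found in 1 of 150 damped genes that went down, 3 of 207 enhanced genes that went up, 0 of 249 enhanced genes that went down and 6 of 874 opposite genes. A match is a description of the letters and not of a bound site. Of the damped genes named above, HSP17.4, AT1G53540, HSFA7A, GOLS1 and DREB2A hold the element within the 250 bases before the start, and those 250 bases are shown (RefSeq, TAIR10.1, 5′ to 3′ on the strand of the gene), with the bases of the element in capitals. The windows are chr3:16984868-16985117 on the minus strand for HSP17.4, chr1:19980049-19980298 on the plus strand for AT1G53540, chr3:19264891-19265140 on the plus strand for HSFA7A, chr2:19370479-19370728 on the minus strand for GOLS1, and chr5:1601955-1602204 on the plus strand for DREB2A.
HSP17.4: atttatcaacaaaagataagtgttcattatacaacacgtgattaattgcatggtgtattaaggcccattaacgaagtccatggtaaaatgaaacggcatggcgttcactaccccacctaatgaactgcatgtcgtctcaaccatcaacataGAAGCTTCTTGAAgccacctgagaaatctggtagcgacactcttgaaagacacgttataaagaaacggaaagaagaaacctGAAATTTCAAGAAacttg
AT1G53540: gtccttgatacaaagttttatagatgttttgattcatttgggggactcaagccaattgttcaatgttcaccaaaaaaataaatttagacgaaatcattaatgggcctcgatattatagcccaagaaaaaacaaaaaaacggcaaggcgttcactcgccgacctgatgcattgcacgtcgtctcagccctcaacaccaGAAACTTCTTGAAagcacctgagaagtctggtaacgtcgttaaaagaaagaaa
HSFA7A: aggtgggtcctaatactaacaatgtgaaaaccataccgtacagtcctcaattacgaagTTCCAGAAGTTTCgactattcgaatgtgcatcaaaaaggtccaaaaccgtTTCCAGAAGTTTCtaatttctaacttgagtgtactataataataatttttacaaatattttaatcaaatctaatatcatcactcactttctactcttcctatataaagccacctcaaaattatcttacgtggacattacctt
GOLS1: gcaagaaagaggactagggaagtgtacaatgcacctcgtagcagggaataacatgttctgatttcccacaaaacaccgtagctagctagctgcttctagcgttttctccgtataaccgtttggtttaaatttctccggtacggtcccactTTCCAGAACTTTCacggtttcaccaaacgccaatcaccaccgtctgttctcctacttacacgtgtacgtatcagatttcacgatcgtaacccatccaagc
DREB2A: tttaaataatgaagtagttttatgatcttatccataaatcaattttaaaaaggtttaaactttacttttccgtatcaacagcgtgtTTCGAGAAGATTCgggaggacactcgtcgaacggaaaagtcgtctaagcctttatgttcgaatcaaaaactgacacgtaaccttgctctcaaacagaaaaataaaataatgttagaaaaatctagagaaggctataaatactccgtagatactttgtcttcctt
The element lay 6 bases before the start in HSP17.4, 41 in AT1G53540, 130 in HSFA7A, 88 in GOLS1 and 152 in DREB2A, counted to its nearest base. HSP23.6-MITO, HSP17.6II, HSP17.6A and AT2G29500, with interactions of like size, hold no such run of letters in the same window, which says nothing of binding elsewhere or to a looser form of the element.

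Over all tested genes heat raised 26.3% in WT and 22.6% in 35S:HSFA1b (limma). Of the rapid-response transcription factors it raised 20 of 23 tested in WT and 3 of them in the overexpressor. Of these ethylene response factors (ERFs) and zinc finger factors, which are early genes of wounding, pathogen and abiotic stress, 17 were negative and 1, AZF3, positive (1.15, named after its values were seen). AZF3 lost the call without column 2 of 35S:HSFA1b NS and with the level curve. The median interaction was -3.64, with median heat changes of 0.29 in 35S:HSFA1b and 4.17 in WT. Under HS the members had a median of -2.33 from WT, and of -2.30 after the level curve. ZAT10, a zinc finger repressor, was at 39.6, 47.2 and 39.6 FPKM in 35S:HSFA1b HS and 9.11, 17.35 and 13.8 FPKM in 35S:HSFA1b NS, against 117, 235 and 780 FPKM in WT HS and 4.08, 1.79 and 2.68 FPKM in WT NS. The groups did not overlap, the 3 WT HS columns were far from each other, and the interaction was -4.99 (SE 0.79, adjusted p = 0.0026, limma). ERF104, a target of a stress-activated kinase, was at 0.790, 0.957 and 1.60 FPKM in 35S:HSFA1b HS and 2.34, 2.90 and 2.73 FPKM in 35S:HSFA1b NS, against 12.4, 36.8 and 126 FPKM in WT HS and 1.65, 1.44 and 1.69 FPKM in WT NS. It is an opposite gene with an interaction of -5.90 (SE 0.88, adjusted p = 0.0019, limma), and in the overexpressor all HS columns lay below all NS columns. ERF105 had -5.13 and ZAT6 -4.31. The number of negative members was 8 without column 1 or 2 of 35S:HSFA1b NS or column 1 of WT NS, 11 without column 1 or 2 of 35S:HSFA1b HS, and 10 without column 1 of WT HS.

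WRKY factors of stress and immunity gave 6 negative and no positive genes of 14, with a median interaction of -2.04. WRKY40, a repressor of immune genes, was at 9.99, 3.81 and 5.60 FPKM in 35S:HSFA1b HS and 4.99, 7.82 and 6.11 FPKM in 35S:HSFA1b NS, against 17.2, 31.3 and 159 FPKM in WT HS and 2.75, 0.471 and 0.682 FPKM in WT NS. The overexpressor columns overlapped between HS and NS, and those of WT did not, with an interaction of -5.56 (SE 1.13, adjusted p = 0.011, limma). WRKY53, WRKY46 and WRKY15 had -4.72, -4.69 and -2.81. The number of negative members was 3 without column 2 of 35S:HSFA1b HS, column 2 of 35S:HSFA1b NS, or column 1 or 2 of WT NS, 10 without column 0 of WT HS, and 11 without column 0 of WT NS.

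Touch and calmodulin-like genes, which respond to calcium and mechanical stimuli, gave 6 negative and no positive genes of 12, with a median interaction of -2.18. TCH4, a cell wall enzyme induced by touch, was at 3.08, 5.25 and 4.08 FPKM in 35S:HSFA1b HS and 12.1, 14.3 and 10.4 FPKM in 35S:HSFA1b NS, against 36.1, 55.4 and 338 FPKM in WT HS and 12, 10.8 and 13.1 FPKM in WT NS. The NS columns overlapped between genotypes, every overexpressor HS column lay below them and every WT HS column above them, an interaction of -4.46 (SE 0.89, adjusted p = 0.0097, limma). Column 2 of WT HS was well above the other WT HS columns in ZAT10, ERF104, WRKY40 and TCH4, and what set it apart was not tested. Without it 13 of the ERF and zinc finger list, 7 of the WRKY list and 5 of the touch list were negative. The touch list had 3 negative members without column 2 of 35S:HSFA1b HS, column 1 or 2 of 35S:HSFA1b NS, column 1 of WT HS, or column 1 or 2 of WT NS.

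Of 20 jasmonate genes 4 were negative and none positive, with a median interaction of -1.66. JAZ5 had -4.00, JAZ1 -2.82 and JAZ2 -1.65, all repressors of jasmonate signalling, and MYC2, its main factor, had -2.04. The number was 1 without column 1 or 2 of any of 35S:HSFA1b HS, 35S:HSFA1b NS and WT NS, 2 without column 2 of WT HS, 7 without column 0 of 35S:HSFA1b NS or of WT NS, and 8 without column 0 of 35S:HSFA1b HS. Of 14 abscisic acid (ABA) genes 4 were negative, HAI2 at -2.58, NCED3, which makes the precursor of ABA, at -2.50, GBF3 at -2.18 and ABF4 at -0.78, and the number was 1 without column 1 or 2 of 35S:HSFA1b NS, 2 without column 2 of 35S:HSFA1b HS or column 1 of WT NS, 6 without column 0 of 35S:HSFA1b NS, and 7 without column 0 of WT HS or of WT NS. Of 20 salicylic acid defence genes none passed in either direction (limma), although 8 had an unadjusted p under 0.05 and the median interaction was -2.05. Without column 0 of WT HS 12 were negative, and without column 0 of WT NS 8. Of 12 cold-regulated genes 3 were negative, KIN1 at -3.52, CBF3 at -2.67 and CBF2 at -2.09, the last losing the call under 11 alternatives. KIN1, a cold- and ABA-induced gene, was at 131, 94.5 and 151 FPKM in 35S:HSFA1b HS and 107, 226 and 212 FPKM in 35S:HSFA1b NS, against 63.8, 79.3 and 196 FPKM in WT HS and 20.5, 7.87 and 11.3 FPKM in WT NS, so that heat separated the WT columns and not those of the overexpressor.

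Of 11 morning genes 6 were negative and 1 positive, with a median of -0.47. RVE7, a MYB factor related to the core clock proteins, was at 25.4, 26.2 and 28.3 FPKM in 35S:HSFA1b HS and 18.45, 16.5 and 17.5 FPKM in 35S:HSFA1b NS, against 91.4, 78.2 and 66.1 FPKM in WT HS and 9.05, 11.5 and 10.9 FPKM in WT NS. The groups did not overlap and the interaction was -2.29 (SE 0.18, adjusted p = 1.1e-05, limma), but RVE7 shares 1455 bases at 99.7% with AT3G10113, so its level is uncertain. RVE1 had -1.21, PRR9, which also has a near-identical copy, -0.84 and LNK1 -0.74. The 1 positive gene, named after its values were seen, was LHY, a core morning repressor, at 0.72, with heat changes of -2.72 in 35S:HSFA1b and -3.44 in WT. Of 6 tested evening genes 1 was negative, GI, which couples the clock to flowering, at -1.15.

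Growth genes were split. Of 36 tested genes of auxin, brassinosteroid, gibberellin and the PIF factors, 9 were negative and none positive, with a median interaction of -0.49. PIF4, which promotes growth in warmth, was at 51.6, 52.6 and 57.1 FPKM in 35S:HSFA1b HS and 68.0, 78.1 and 74.0 FPKM in 35S:HSFA1b NS, against 105, 97.1 and 105 FPKM in WT HS and 80.6, 81.6 and 80.6 FPKM in WT NS. Heat lowered every overexpressor column below its NS columns and raised every WT column above its own, an interaction of -0.78 (SE 0.10, adjusted p = 0.0007, limma). The DELLA repressors RGL1 and RGA had -1.03 and -0.68 and the auxin repressor IAA2 -0.80. Of 23 expansins and aquaporins 3 were negative, PIP2;3 at -2.04, EXPA16 at -1.21 and PIP2;7 at -1.18, and 2 positive, EXPA3 at 1.16 and EXPA15, named after its values were seen, at 0.85, which lost the call without column 2 of 35S:HSFA1b NS. PIP2;3 shares 1194 bases at 93.1% with AT2G37170. EXPA3, a cell wall loosening protein, was at 31.4, 33.0 and 35.5 FPKM in 35S:HSFA1b HS and 20.6, 22 and 27.7 FPKM in 35S:HSFA1b NS, against 20.5, 16.1 and 15.6 FPKM in WT HS and 26.8, 26.9 and 26.8 FPKM in WT NS. Its HS columns were above its NS columns in the overexpressor and below them in WT.

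Photosynthesis genes stand at the top of the expression range. Of 43 photosystem, antenna and Rubisco genes 1 was positive, LHCB4.3 at 1.06, and none negative (limma), and 1 had an unadjusted p under 0.05. The positive share of 2.33% compares with 3.94% of all tested genes. LHCB4.3 also passed without column 2 of 35S:HSFA1b NS, with the level curve and with quantile normalization. The median interaction of the list was -0.24, but 0.15 without column 2 of 35S:HSFA1b NS, 0.21 with the level curve and 0.07 with quantile normalization. Their median difference from WT was -1.13 under NS and -1.38 under HS, or -0.24 and -0.01 after the level curve. Of 12 flavonoid genes 1 was positive, FLS1 at 0.98, which makes flavonols. Another 1 was negative, PAP1 at -2.24, an activator of anthocyanin synthesis, which lost the call under 11 alternatives. Each is a share of 8.33%, against 3.94% positive and 7.97% negative over all tested genes. Of 17 glucosinolate genes none passed (limma), and 2 had an unadjusted p under 0.05.

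**Figure D4:**
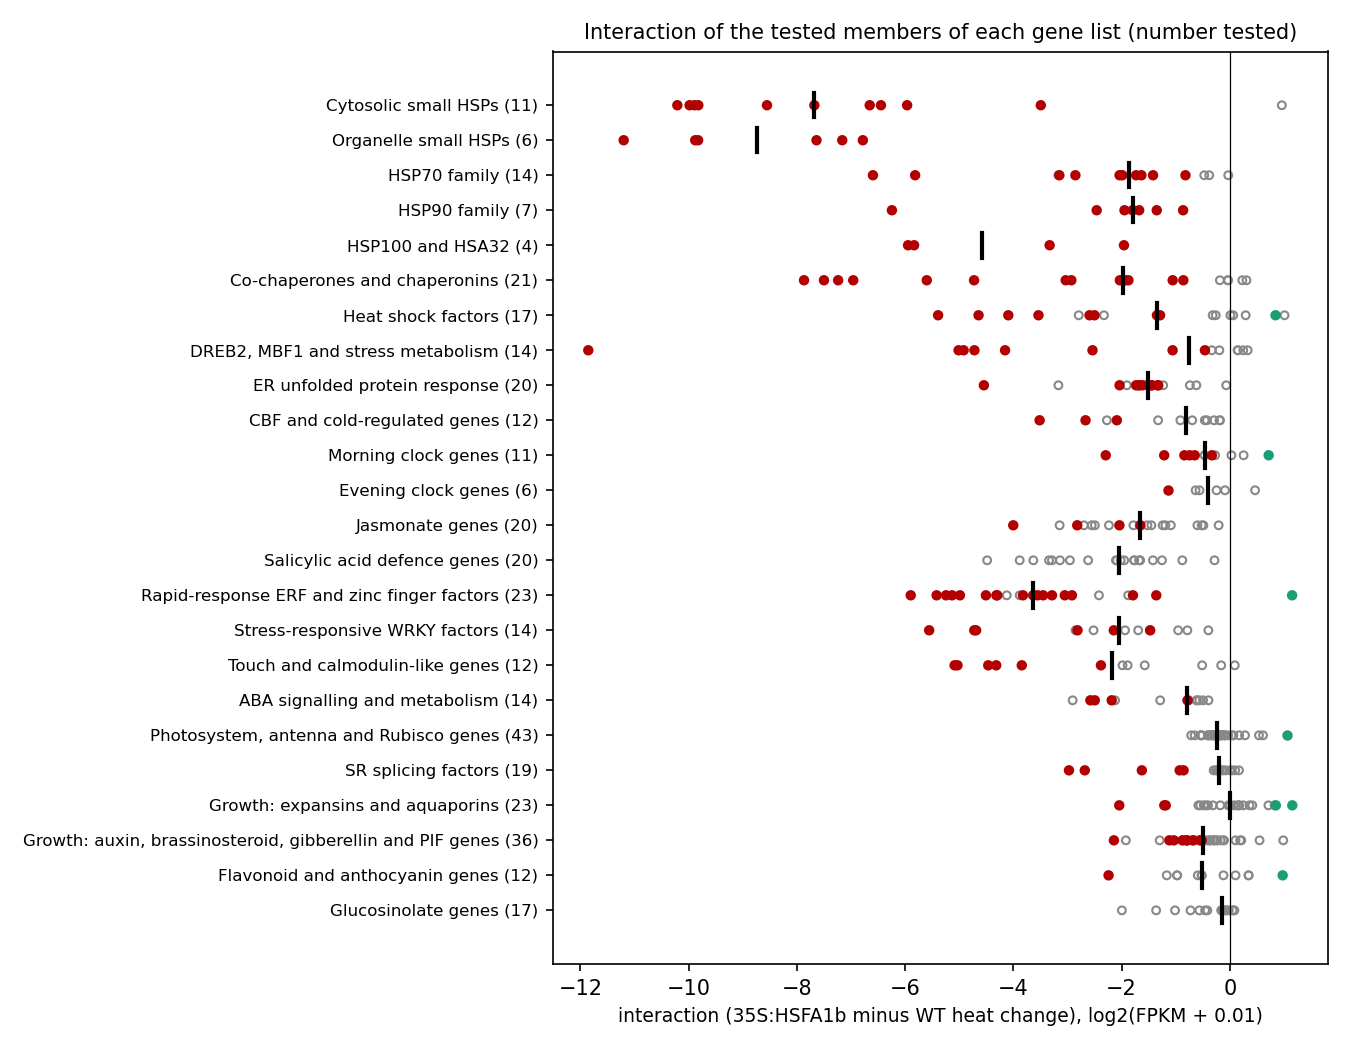
Interaction on the log2(FPKM + 0.01) scale for each tested member of 24 gene lists, with filled red points negative and filled green points positive at an adjusted p of 0.05, open points not past it, and black bars at the list medians. The list medians of the small HSPs lie furthest to the left, at -7.68 and -8.73. The single lowest point, at -11.86, is in the list of DREB2, MBF1 and stress metabolism genes.

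The 150 damped genes that went down had a median interaction of 0.75, with median heat changes of -0.24 in 35S:HSFA1b and -1.05 in WT. This class rested most on single columns, with 40 genes remaining without column 2 of 35S:HSFA1b NS and 149 under quantile normalization. The largest interaction was that of ATGA2OX1 (AT1G78440), which inactivates gibberellin, at 1.55, 2.69 and 1.87 FPKM in 35S:HSFA1b HS and 4.51, 4.82 and 5.26 FPKM in 35S:HSFA1b NS, against 0.995, 1.72 and 1.05 FPKM in WT HS and 9.42, 11 and 13.3 FPKM in WT NS. The HS columns overlapped between genotypes and the NS columns did not, with an interaction of 1.89 (SE 0.35, adjusted p = 0.0066, limma). BGLU47, AT3G14740, AT2G18890, AT1G28620 and PUP4 followed with 1.78, 1.74, 1.66, 1.63 and 1.61, and each lost the call under 6 to 12 of the alternatives tried.

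The 207 enhanced genes that went up had a median interaction of 0.80, with median heat changes of 1.22 in 35S:HSFA1b and 0.29 in WT. They differed from WT under HS (median 1.09) more than under NS (median 0.25), and 108 remained called without column 2 of 35S:HSFA1b NS. DGD2 (AT4G00550), which makes the galactolipid digalactosyldiacylglycerol, was at 80.0, 134 and 96.1 FPKM in 35S:HSFA1b HS and 11.5, 13.2 and 12.4 FPKM in 35S:HSFA1b NS, against 7.52, 10.3 and 15.5 FPKM in WT HS and 9.15, 6.99 and 6.84 FPKM in WT NS. The overexpressor HS columns were above all others, with an interaction of 2.54 (SE 0.35, adjusted p = 0.0011, limma). AT5G04980, a DNase I-like protein, was at 32.5, 56.3 and 45.7 FPKM in 35S:HSFA1b HS and 5.03, 6.73 and 4.47 FPKM in 35S:HSFA1b NS, against 3.64, 3.74 and 4.18 FPKM in WT HS and 4.00, 4.49 and 3.08 FPKM in WT NS. The WT columns overlapped between HS and NS, and the interaction was 3.02 (SE 0.31, adjusted p = 0.00011, limma).

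The largest interaction among enhanced genes that went up was that of AT1G33350, a pentatricopeptide repeat protein, a family that binds organelle RNA. It was at 7.46, 8.14 and 8.05 FPKM in 35S:HSFA1b HS and 0.445, 0.520 and 0.683 FPKM in 35S:HSFA1b NS, against 0.637, 0.689 and 0.576 FPKM in WT HS and 0.458, 0.694 and 0.393 FPKM in WT NS. Only the overexpressor HS columns stood apart, with an interaction of 3.51 (SE 0.36, adjusted p = 0.00013, limma). AT4G14170, of the same family, had 3.41, AT5G41380, a CCT motif protein, 2.97 and AT2G24110 2.49, the last losing the call under 7 of the alternatives.

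The 249 enhanced genes that went down had a median interaction of -1.01, with median heat changes of -1.50 in 35S:HSFA1b and -0.41 in WT. Their median difference from WT was -0.02 under NS and -1.04 under HS. OFP16, of the ovate family of growth repressors, was at 0.796, 0.474 and 0.995 FPKM in 35S:HSFA1b HS and 12.8, 10.9 and 16.7 FPKM in 35S:HSFA1b NS, against 5.00, 4.91 and 2.29 FPKM in WT HS and 8.40, 12.4 and 17.1 FPKM in WT NS. The NS columns of the genotypes overlapped and the HS columns did not, with an interaction of -2.52 (SE 0.52, adjusted p = 0.012, limma). bHLH38, a factor of iron uptake, was at 0.351, 0.652 and 0.789 FPKM in 35S:HSFA1b HS and 2.99, 6.43 and 4.34 FPKM in 35S:HSFA1b NS, against 6.91, 6.50 and 4.80 FPKM in WT HS and 6.37, 10.4 and 9.65 FPKM in WT NS. Its WT columns overlapped between HS and NS, its interaction was -2.41, and it overlaps AT3G56960 on the opposite strand over 386 bases. AT1G22065 had -3.08, AT1G72910, a TIR domain protein with a near-identical copy, -2.85, AT1G16510, a SAUR-like auxin-responsive protein, -2.72, and AT1G16515 -2.34. The call was lost under 12 alternatives for AT1G72910, 9 for AT1G16510 and 6 for AT1G16515.

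The 876 opposite genes fell into groups of unlike size. The 534 that were down in 35S:HSFA1b and up in WT had a median interaction of -1.45, with median heat changes of -0.59 in 35S:HSFA1b and 0.75 in WT, and 271 remained without column 2 of 35S:HSFA1b NS. The 342 that were up in 35S:HSFA1b and down in WT had a median of 0.81, with 0.43 in 35S:HSFA1b and -0.36 in WT, and 157 remained. Of the 153 where both heat changes passed by themselves, 139 remained without that column and 153 with the level curve. CML41, a calmodulin-like protein of the plasmodesmata, was at 2.27, 0.936 and 0.361 FPKM in 35S:HSFA1b HS and 7.33, 3.65 and 6.16 FPKM in 35S:HSFA1b NS, against 7.05, 5.62 and 16.8 FPKM in WT HS and 2.79, 0.981 and 1.26 FPKM in WT NS. Within neither genotype did HS and NS columns overlap, and the interaction was -5.09 (SE 0.91, adjusted p = 0.0056, limma). AT1G65500 had -5.70 and AT2G04070, a MATE efflux protein, -4.17, the last losing the call under 7 alternatives.

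In the reverse direction CTF7, an acetyltransferase of sister chromatid cohesion, was at 11.3, 17.38 and 15.8 FPKM in 35S:HSFA1b HS and 5.19, 6.21 and 3.93 FPKM in 35S:HSFA1b NS, against 1.80, 1.35 and 1.88 FPKM in WT HS and 3.08, 3.10 and 3.01 FPKM in WT NS. The 4 groups did not overlap, and the interaction was 2.41 (SE 0.29, adjusted p = 0.00043, limma). CTF7 overlaps AT4G31398 on the opposite strand over 770 bases, so reads of that gene cannot be told apart from its own. AT3G15550 had 1.81 and AT2G37420, a microtubule motor protein, 1.69.

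**Figure D5:**
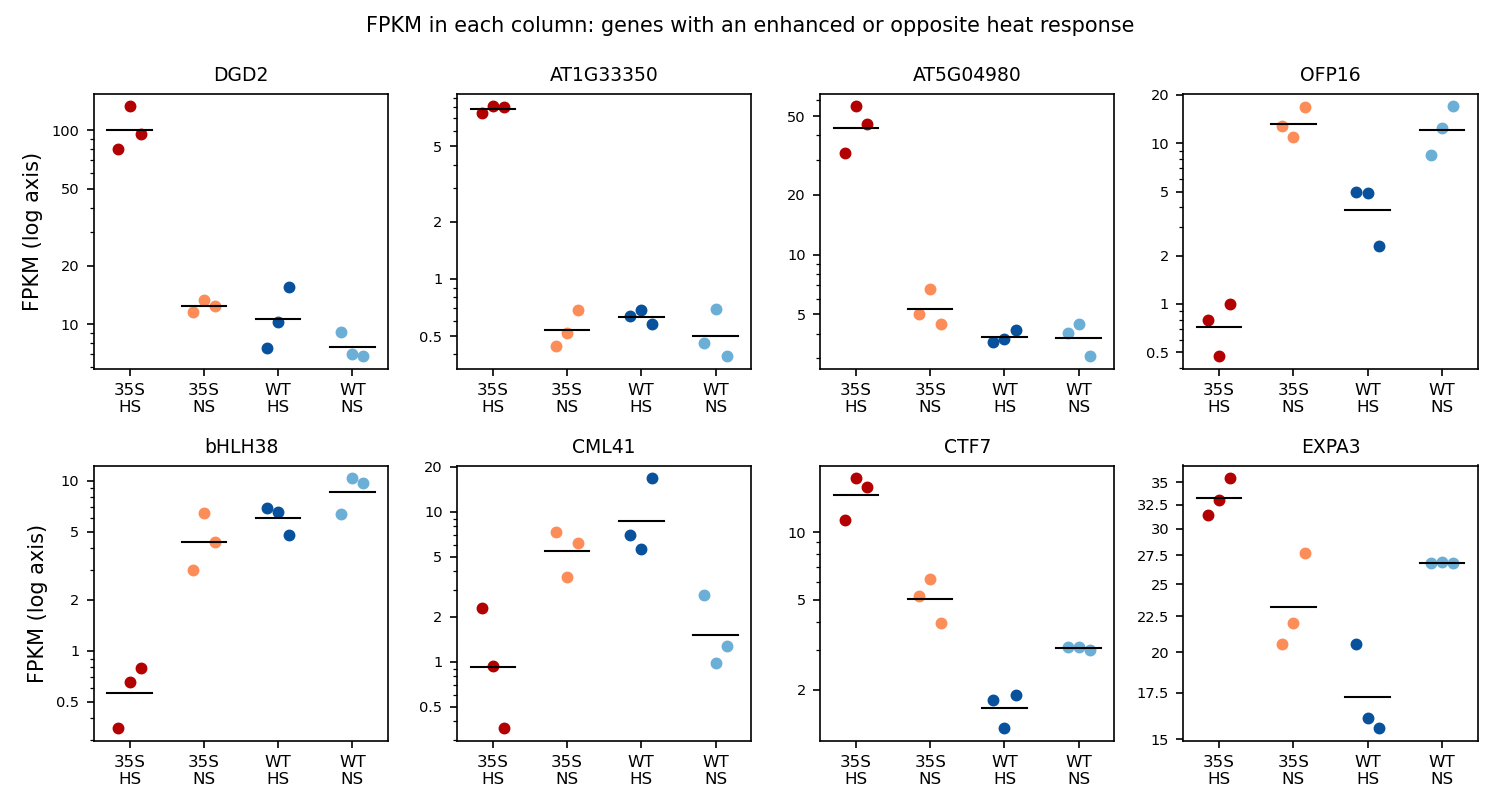
FPKM in each of 3 columns per group (points, log axis) with the mean of the log values (line). DGD2, AT1G33350 and AT5G04980 are highest in 35S:HSFA1b HS, OFP16 and bHLH38 are lowest in 35S:HSFA1b HS, and CML41, CTF7 and EXPA3 move in opposite directions in the 2 genotypes.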

How the data were processed

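RNA-seq was made by the authors with a TruSeq RNA kit and processed, per the labels, with GSNAP, Cufflinks and Cuffdiff on TAIR10. Versions are not given in the sources used here. The authors deposited FPKM values, normalized across replicates, in 1 table of 12 columns. The number of reads behind a value is unknown, so no interval for counting error is given. The columns name the group and a digit, but not the library.

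FPKM values of loci with a mean of at least 1 were taken as log2(FPKM + 0.01), and a fold on this scale understates the change of low genes. They were fitted with limma 3.58.1 in R 4.3.3 (4 group means, intensity trend, two-sided, Benjamini-Hochberg over 17720 genes, threshold 0.05), and the procedure was checked on simulated data. Gene names and promoters came from RefSeq TAIR10.1, matched by locus for 32810 of 33557 loci. Copies are BLAST 2.17.0 alignments of at least 100 bases at 90% identity, and gene pairs that overlap on opposite strands are given since the counting of strand is not stated.

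The level curve is a smoothed line (lowess, span 0.01) through the gap of columns 0 and 1 from column 2 of 35S:HSFA1b NS against level, by which the 7 columns with the higher top were shifted. Other alternatives were pseudocounts, filters, scalings, thresholds and each column left out. Named genes were HSFA1b, up to 6 per class with the largest interaction and at least 0.1 FPKM in every column (for opposite genes, the 3 per direction whose smaller heat change was largest), and up to 4 per list with the smallest p. Members and lists were chosen with earlier results of these data known. The list of HSFA1b binding sites came from the supplementary data of the study and gave locus names only.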

Additional observations from a re-analysis of the deposited data

Results flagged for a closer look

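The genes listed here were picked by the rule for named genes, among genes with at least 0.1 FPKM in every column. They had the largest interactions of their class there, and the opposite genes the largest smaller heat change. Their heat effect differed between the 2 genotypes by a test of the difference itself. This was the interaction on log2(FPKM + 0.01) at an adjusted p of 0.05 (limma, Benjamini-Hochberg). The choice used that interaction, so the test gives no support of its own. APX2 and HSP21 did not meet the floor, and opposite genes such as ERF104 had larger interactions than those listed. Among damped genes that went up these were HSP23.6-MITO (-11.20), HSP17.6II (-10.21), HSP17.4 (-9.98), HSP17.6A (-9.89), AT1G53540 (-9.82) and AT2G29500 (-8.55). Among damped genes that went down they were ATGA2OX1 (1.89), BGLU47 (1.78), AT3G14740 (1.74), AT2G18890 (1.66), AT1G28620 (1.63) and PUP4 (1.61). Among enhanced genes that went up they were AT1G33350 (3.51), AT4G14170 (3.41), AT5G04980 (3.02), AT5G41380 (2.97), DGD2 (2.54) and AT2G24110 (2.49). Among enhanced genes that went down they were AT1G22065 (-3.08), AT1G72910 (-2.85), AT1G16510 (-2.72), OFP16 (-2.52), bHLH38 (-2.41) and AT1G16515 (-2.34). Among opposite genes they were CML41 (-5.09), AT1G65500 (-5.70) and AT2G04070 (-4.17), down in 35S:HSFA1b and up in WT, and AT3G15550 (1.81), CTF7 (2.41) and AT2G37420 (1.69), up in 35S:HSFA1b and down in WT. Groups of 3 columns are too small for a test of single outlying columns.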

How the results depend on the processing

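No gene named by the rule changed the sign of its interaction under any alternative run. Quantile normalization turned the majority of calls from negative to positive (1098 negative, 1221 positive), and the median of the photosystem list and of the mesophyll markers turned without column 2 of 35S:HSFA1b NS. The order of the heat-responsive gene counts turned without the WT columns named in the report, and without both column 0 of WT NS and column 2 of WT HS it was 8809 in 35S:HSFA1b and 7933 in WT. Leaving out each column in turn gave 1154 to 3388 genes past the interaction test, 845 to 2084 negative, 309 to 1304 positive, 416 to 968 damped and up, 34 to 423 damped and down, 106 to 230 enhanced and up, 127 to 278 enhanced and down, 424 to 1499 opposite, and 87 to 233 opposite with both heat changes past the test. Without both column 0 of WT NS and column 2 of WT HS, the WT columns least like their group, the damped and down class had 239 genes, the enhanced classes 248 (up) and 338 (down), the opposite class 1318 and its part with both changes past the test 294.

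An adjusted p of 0.01 left 740 genes, 567 negative and 173 positive, in classes of 352, 12, 75, 62 and 239 in the same order, and 35 opposite with both changes past the test. An absolute interaction of at least 1 left 1183 genes, 228 positive, with 42 damped and down, 71 enhanced and up, 129 enhanced and down and 496 opposite. Quantile normalization gave 295 damped and down genes, and scaling the columns to a common median log2 ratio 239 damped and down. Among genes below 100 FPKM in every column 306 were damped and up, and without column 2 of 35S:HSFA1b NS as well there were 699 calls, 470 negative and 229 positive, in classes of 176, 25, 81, 105 and 312, with 74 opposite where both changes passed. For these 2 filters fewer genes were tested, and in the others the cause was not tested. Pseudocounts of 0.1 and 1, filters of a mean above 0, of 5 FPKM or of 0.1 FPKM in every column, no intensity trend and the level curve moved no count by over 1.5 times.

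Of the 123 genes named by the rule, 2591 refits kept the side of the threshold, 175 lost the call and 22 gained it. No paired analysis was possible because the digits of the columns are not matched to the replicate numbers of the labels, so the planned fit with the replicate number as a block was not run. The cap of 100 FPKM, the level curve and the joint removal of columns were chosen after seeing the data. The depth is unknown and 3 columns a group limit precision. Genotype and set of columns cannot be told apart under HS.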

Other observations

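Protein families were read from the RefSeq product names, and those given here were chosen after their values were seen. Of 348 tested pentatricopeptide or tetratricopeptide repeat proteins, most of which bind RNA in organelles, 32 had a positive interaction (9.20%, against 3.94% of all tested genes) and 9 a negative one, at an adjusted p of 0.05 (limma). Their median interaction was 0.26, with median heat changes of -0.04 in 35S:HSFA1b and -0.22 in WT, and 12 were positive without column 2 of 35S:HSFA1b NS and 49 under quantile normalization. Of 36 kinesins and microtubule motor proteins 5 (13.9%) were positive and none negative, with a median of 0.46, and 1 was positive without that column. Of 47 SAUR proteins, small auxin-induced proteins of cell growth, 8 were negative (17.0%, against 7.97% of all tested genes) and none positive. Their median was -0.47, with median heat changes of -0.41 in 35S:HSFA1b and 0.02 in WT. Of 45 WRKY factors of any kind 12 were negative (26.7%) and none positive, with a median of -0.95. The negative calls of these families were not counted with single columns left out. Of 295 cytosolic ribosomal proteins 3 were positive (1.02%) and 1 negative (0.339%), both below the shares of all tested genes. Their median was 0.10, which quantile normalization moved to 0.28.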
